A study of Mus musculus with 16 samples.

Results

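The interval from 6 to 12 h of LPS was examined in cultured mouse macrophages, on 8 of the 16 arrays of the study. Those 8 arrays form 4 groups of 2: wild-type (WT) cells after 6 h, WT cells after 12 h, and cells without the microRNA miR-155 (miR-155 KO, here KO) at the same 2 times. They were chosen by sample title, and the step is the mean of the 4 arrays at 12 h minus the mean of the 4 arrays at 6 h, with genotype and replicate number as additive terms of the fit. The 4 arrays of unstimulated WT and KO cells (0 h) did not enter the fit of the step, and neither did the 24 h arrays. The 0 h arrays gave the direction that a gene had taken by 6 h and the level with which 12 h was compared. The filter that removed dim probes was not limited to the 6 and 12 h groups. A fit over all 16 arrays served as an alternative.

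All groups share the strain C57BL/6Jax, male sex, and a 9-day culture of marrow cells with M-CSF at 10 ng/mL, a cytokine under which such cells become macrophages. The adherent cells received 100 ng/mL of LPS, and Cy3-labelled cRNA was made from their total RNA. The age of the mice, the way the KO allele was made and whether replicates came from separate animals or cultures are not given in the sources used here. What the p-values measure is thus only the spread among these arrays, and that spread may be technical. In cultures measured in bulk, fewer cells of a type and less RNA per cell cannot be told apart.

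LPS, a lipid with sugar chains, coats Gram-negative bacteria. Macrophages sense it through Tlr4, which within minutes activates the transcription factors NF-kB and AP-1 and, from endosomes, the interferon regulatory factors. The first wave of transcripts encodes cytokines, chemokines and also the inhibitors that end the signal, such as IkB proteins, A20, SOCS proteins and dual-specificity phosphatases. Interferon beta, itself a product of that wave, acts back on the cells through its receptor and STAT proteins and induces a later antiviral programme. miR-155 is a microRNA that inflammatory signals induce in macrophages, and it represses, among others, the phosphatase gene Inpp5d (SHIP1).

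The sequence absent from the KO cells is shown because it defines these groups. The mature miR-155-5p of 23 bases lies at chr16:84714143-84714165 on the plus strand (RefSeq, GRCm38.p6), and capitals mark its seed, bases 2 to 8.
mmu-miR-155-5p: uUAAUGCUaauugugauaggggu
The array holds no probe of its host gene, so the KO genotype could not be checked on these data.

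A value below is a level unless it is called a step or a difference: the log2 of a probe's signal minus the log2 of that array's 75th percentile, so that 0 is the 75th percentile and 1 unit is a factor of 2. Where a gene's arrays are listed, the order is WT replicate 1, WT replicate 2, KO replicate 1, KO replicate 2. Over the 8 arrays the 75th percentile of signal ran from 291 to 560 and the share of spots well above background from 56.2% to 65.4%. A gene was called at an adjusted p under 0.05 in limma with Benjamini-Hochberg adjustment over all 17658 genes tested, and standard errors (SE) follow the sign ±.

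All 12 macrophage markers, among them Csf1r, Adgre1, Cd68 and Itgam, were well above background on all 8 arrays. Of these, 0 were called higher and 2 lower in the step (Cd14 and Mertk), 16.7% against 14.9% of all genes. Of 10 dendritic cell markers tested, 0 were called higher and 4 lower (40%, Ccl22, Cd83, Ccl17 and Fscn1). The summed linear level of the 10, in units of the 75th percentile, ran from 119 to 237 at 6 h and from 20.7 to 101 at 12 h. The defining dendritic genes Clec9a, Siglech and Cd209a were not tested, since they had no probe here or did not pass the filter on dim probes. Of 7 tested T and NK markers 2 were called lower (28.6%, Lck and Cd247), with a sum of 2.35 to 5.41 at 6 h and 0.814 to 1.59 at 12 h. Lck, at mean levels of 1.54 and -0.71, made up the largest part of that sum. Cd3d, Cd8a, Cd8b1, Ncr1 and Gzma were not tested for the same reasons. Ccl22, Ccl17, Cd83, Fscn1, Lck and Cd247 were themselves called higher at 6 h than at 0 h. With 1 array left out the steps of Cd14 (-0.98 to -0.69), Fscn1 (-1.05 to -0.70) and Cd247 (-1.48 to -0.90) kept their sign, but each lost its call for several of the 8 arrays. The part of either cell type in the results below was not tested.

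Between 6 and 12 h, 5189 of 17658 genes (29.4%) were called, 2559 higher (14.5%) and 2630 lower (14.9%). The median step of all genes was -0.07. The balance moved with the scaling: 2455 were called higher and 1754 lower on scaling to the median, 2987 and 2266 after quantile normalization, 2941 and 2408 with the 75th percentile of probes detected on all arrays, and 2603 and 3054 with capped normexp background correction. A difference of at least 2-fold was called for 979 genes upwards (5.54%) and 1178 downwards (6.67%). The 4 arrays of one time did not overlap the 4 of the other for 3777 genes (21.4%), 2030 higher (11.5%) and 1747 lower (9.89%). Of the 5189 called genes, 5156 moved one way in all 4 pairs of arrays of one genotype and replicate number. The call itself favours one direction across these pairs. Without the replicate number in the model 1610 genes were called, all of them among the 5189 and in the same direction. With any 1 array left out the count lay between 3576 and 4166.

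The step came after a larger change. By 6 h, 10680 genes (60.5%) differed from 0 h, 5321 higher (30.1%) and 5359 lower (30.3%), and at 12 h 9227 (52.3%) differed from 0 h. The even split at 6 h depended on the processing. It became 4022 higher and 6694 lower with the 75th percentile of probes detected on all arrays, 4779 and 6497 after quantile normalization, 5898 and 4590 on scaling to the median, 7402 and 4424 with capped normexp, and 9017 and 5153 without the filter on dim probes. The median difference of all genes from 0 h at 6 h, 0.05 as reported, was -0.19, -0.13, 0.16, 0.23 and 0.39 in these settings, so small differences from 0 h have no settled sign. Set beside that earlier direction, the called steps fall into classes. A gene is termed declining when it was called higher at 6 h than at 0 h and lower at 12 h than at 6 h, and recovering when both signs are opposite. Still rising and still falling denote 2 calls in one direction.

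The class recovering held 1762 genes and declining 1469, an order that turned with capped normexp (1625 and 1847). Still falling held 614 genes and still rising 252. A further 545 genes rose and 547 fell in the step without a call at 6 h. The median step of declining genes was -0.93 after a median of 1.94 in the first 6 h, so that at 12 h they stood at a median of 0.86 above 0 h. At that time 868 of the 1469 were still called above 0 h, 545 were not called and 56 were called below. For recovering genes the median step was 0.92 after -1.50, which left -0.52. Of the 1762, 885 were still called below 0 h, 814 were not called and 63 were above. Genes still rising had moved by a median of 1.38 by 6 h and of 2.27 by 12 h, and genes still falling by -1.30 and -2.38. Without the replicate number in the model the classes held 660 recovering, 409 declining, 177 still falling and 36 still rising genes. Leaving out WT_06 replicate 1 left 929 declining genes. The class still rising held 137 to 159 genes with an array of KO_06, WT_06, KO_12 replicate 2 or WT_12 replicate 1 left out.

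**Figure D1:**
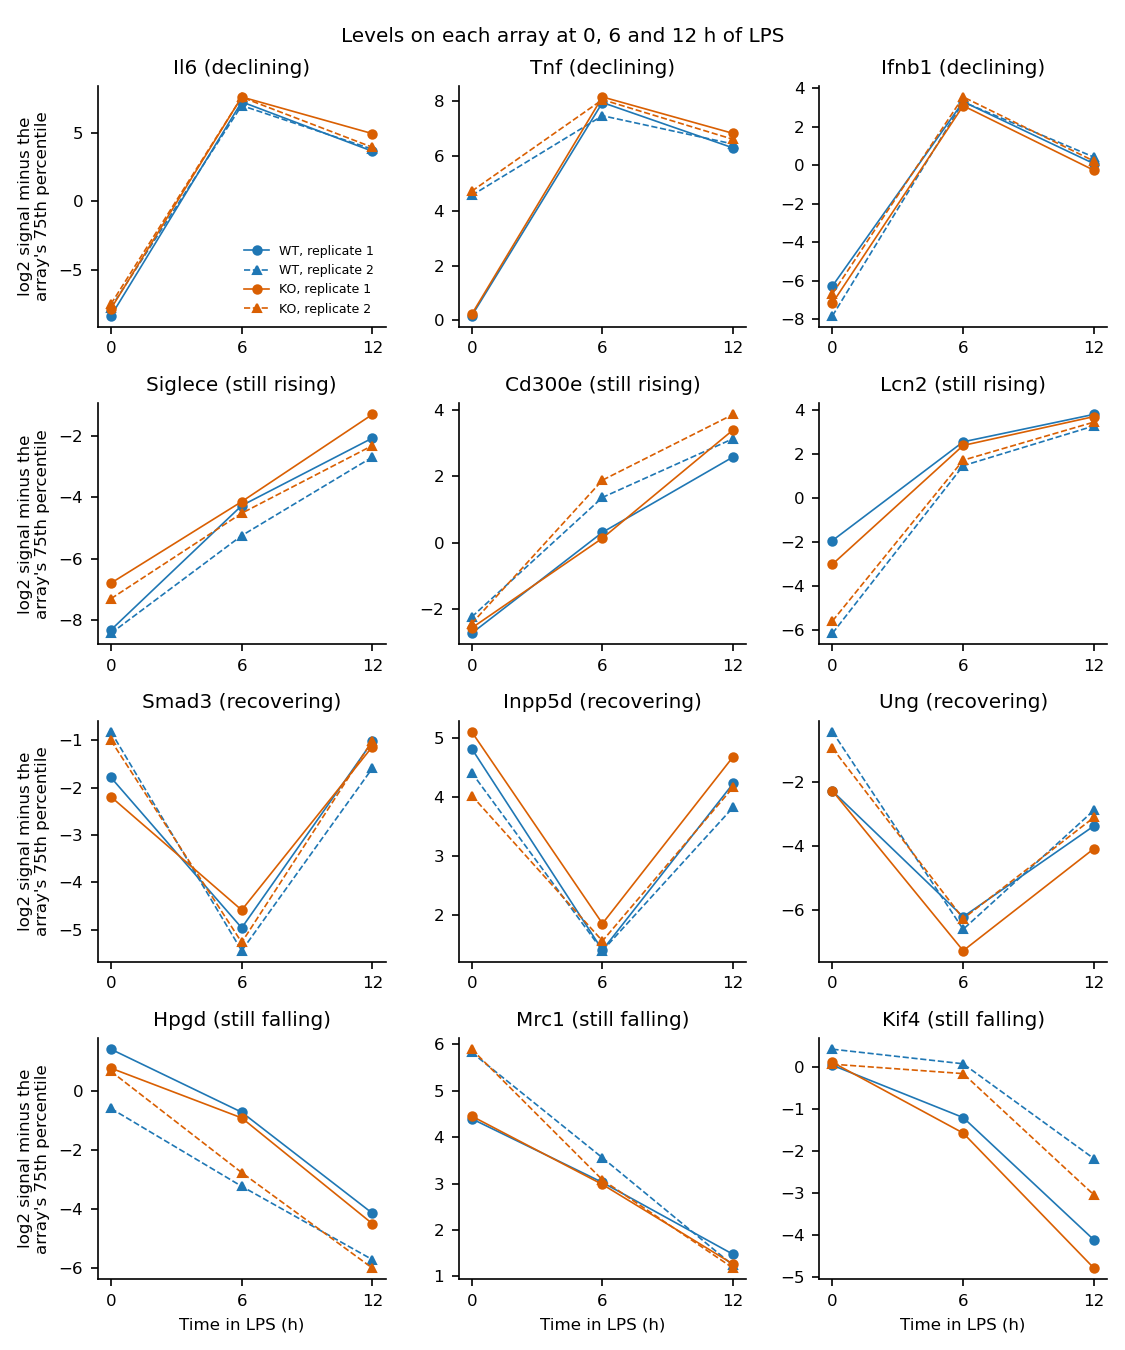
Level (log2 signal minus the array's 75th percentile) against time in LPS (0, 6 and 12 h) for 12 genes, 3 of each class; points are single arrays, colours mark genotype, and line style and marker mark the replicate number. Il6 fell from between 6.98 and 7.61 at 6 h to between 3.65 and 4.94 at 12 h, Smad3 rose from between -5.45 and -4.59 to between -1.59 and -1.0, and Hpgd fell in both intervals.

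The 6 h arrays enter both differences with opposite sign, so opposite directions in the 2 intervals are in part built into the classes. A comparison whose differences share no array, added after the data had been seen, set the first 6 h in WT arrays beside the step in KO arrays. Its calls do share arrays, since each fit took its residual variance from both genotypes. In WT 7166 genes (40.6%) were called at 6 h. Of the 3573 lower than at 0 h (20.2%), 684 were called higher from 6 to 12 h in KO (19.1%) and 204 lower (5.71%). Over all genes these shares were 5.65% and 5.93%. Of 3593 genes higher at 6 h in WT (20.3%), 61 were called higher in the KO step (1.70%) and 523 lower (14.6%). The median KO step was 0.43 in the former and -0.32 in the latter set of genes, against 0.01 over all genes. With the genotypes exchanged, 632 of 3696 genes lower at 6 h in KO were higher in the WT step and 216 lower, and of 3280 genes higher at 6 h, 50 were higher and 476 lower.

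**Figure D2:**
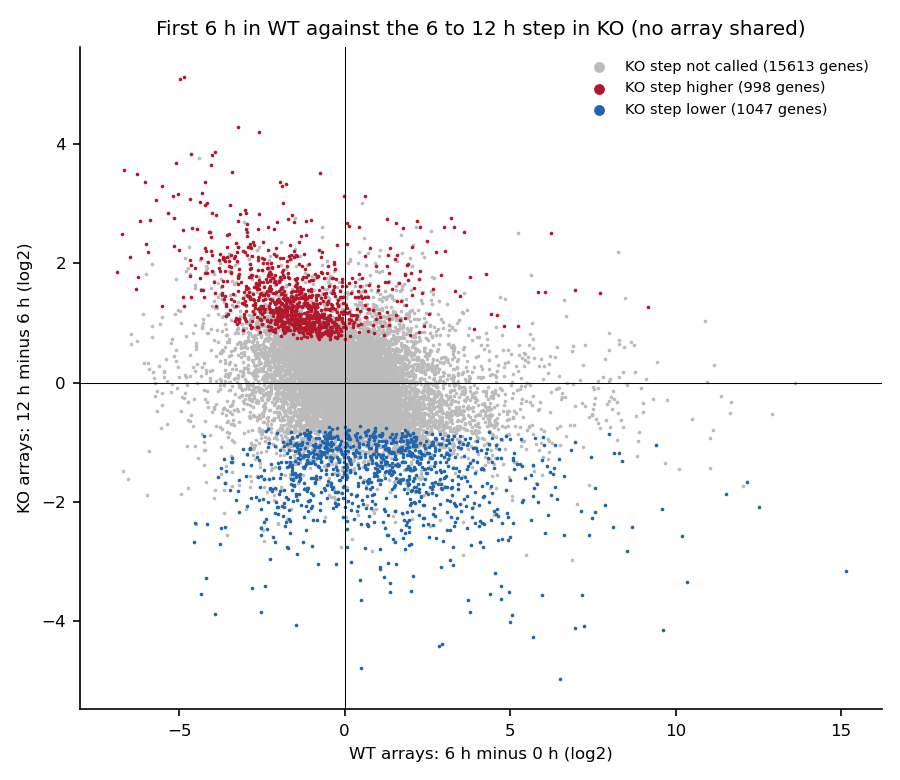
Difference between 6 and 0 h on the WT arrays (x axis, log2) against the difference between 12 and 6 h on the KO arrays (y axis, log2), 1 point per gene, coloured by the call of the KO step. Genes lower at 6 h in WT lie more often above 0 on the y axis than below it, and genes higher at 6 h more often below.

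Cytokine genes of the first wave declined almost as a group. Of 25 tested, 21 fell in the step (84%, against 14.9% over all genes) and 1 rose (4%, against 14.5%). The median was -1.65 against -0.07 over all genes, with medians of -1.51 and -1.48 within the arrays of replicate number 1 and of number 2. By 6 h the median member had risen by 5.69 over 0 h. At 12 h 22 of the 25 were still called above 0 h, against 25.4% of all genes. With any 1 array left out 19 to 20 members fell, and 10 without the replicate number in the model.

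Il6, a cytokine that drives the acute-phase response, stood at 7.25, 6.98, 7.61 and 7.59 at 6 h and at 3.65, 3.80, 4.94 and 3.94 at 12 h (probe at chr5:30346362-30346421 in the array file, mm9). All 4 arrays at 12 h lay far below all 4 at 6 h, and at 0 h none was above background. The step was -3.27 ± 0.20, 9.67-fold lower (limma, adjusted p = 0.000429). Ifnb1, which encodes interferon beta, was measured at 3.30, 3.29, 3.09 and 3.55 at 6 h and at 0.08, 0.42, -0.26 and 0.22 at 12 h. Here too the times did not overlap, and the arrays of one time differed by less than 1 unit. Its step was -3.19 ± 0.14, 9.15-fold lower (adjusted p = 0.000326).

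Il27, a subunit shared with Ebi3 in the cytokine IL-27, stood at 5.36, 6.09, 5.79 and 6.64 at 6 h and at 2.11, 3.59, 2.22 and 3.07 at 12 h. The step was -3.22 ± 0.21 (adjusted p = 0.000468). Ebi3, looked up after its values were seen, was not called, with a step of -0.05 (adjusted p = 0.835). Tnfsf4, the T cell co-stimulator OX40 ligand, had the deepest fall of the list, from 0.29, 1.97, -0.16 and 1.72 to -2.83, -1.90, -4.25 and -2.48. Its arrays did not overlap between times, replicate 2 was the higher one in each group, and the level dropped 14.1-fold (step -3.82 ± 0.22, adjusted p = 0.000386). For Il12b, the p40 subunit of IL-12 and IL-23, the values were 4.95, 5.64, 5.63 and 6.17 at 6 h and 2.27, 3.55, 3.56 and 4.08 at 12 h. It fell 4.70-fold. At 0 h none of its arrays was above background, and at 12 h it was at least 854-fold above 0 h. Il23a, the partner of Il12b in IL-23, was above background on all 6 h arrays and on none at 12 h, a fall of at least 1.89-fold (adjusted p = 0.000534).

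Tnf, the cytokine that starts much of the local inflammatory response, fell less. It stood at 7.96, 7.48, 8.17 and 8.07 at 6 h and at 6.30, 6.44, 6.83 and 6.61 at 12 h, without overlap. The step was -1.37 ± 0.13, 2.59-fold lower (adjusted p = 0.00118). In the fit over all 16 arrays this call was lost. Il1b, the inflammasome-processed cytokine, gave 8.88, 7.75, 8.98 and 8.59 at 6 h and 7.63, 6.43, 8.66 and 7.25 at 12 h. The times overlapped, since the first KO array at 12 h exceeded the second WT array at 6 h, and the step of -1.06 ± 0.20 (adjusted p = 0.0109) was not called without the replicate number in the model or in the fit over all 16 arrays. Il1rn, the secreted antagonist of the IL-1 receptor, was the member that rose, by 0.47 ± 0.12 (adjusted p = 0.0320). That call was lost on leaving out any 1 array, with steps from 0.41 to 0.53.

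Chemokine genes were called in 1 direction only. Of 24 chemokine genes 14 fell (58.3%, against 14.9% over all genes) and 0 rose (0%, against 14.5%). The median was -0.61, with -0.68 and -0.55 within the replicate numbers. Leaving out 1 array gave 8 to 13 falls, with fewer than 10 without KO_06 replicate 1, KO_06 replicate 2, KO_12 replicate 2, WT_06 replicate 1 or WT_12 replicate 1, and 7 fell without the replicate number in the model. Cxcl1, a ligand of Cxcr2, stood at 0.99, 0.39, 2.18 and 1.39 at 6 h and at -1.31, -2.78, 0.68 and -1.41 at 12 h. One KO array at 12 h overlapped the lowest WT array at 6 h, yet each 12 h array was below its own 6 h partner, and the step was -2.44 ± 0.28 (5.44-fold lower, adjusted p = 0.00190). Cxcl2, a second Cxcr2 ligand, gave 2.96, 2.02, 4.41 and 2.83 at 6 h and 0.82, -0.54, 2.20 and 0.28 at 12 h, a step of -2.36 ± 0.17 (adjusted p = 0.000627). Here too 1 KO array at 12 h reached into the 6 h range.

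Neither Cxcl1 nor Cxcl2 was called at 6 h against 0 h, and both lost the call of the step in the fit over all 16 arrays. Their unstimulated arrays split by replicate number: Cxcl1 stood at -4.38 (WT) and -4.19 (KO) on replicate 1 but at 2.73 and 3.30 on replicate 2. Tnf showed the same split at 0 h, with 0.16 and 0.22 against 4.56 and 4.72. Differences from 0 h for these genes rest on baselines that far apart, which does not touch the step.

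The fractalkine gene Cx3cl1 stood at 2.03, 2.11, 1.49 and 2.16 at 6 h and at -0.42, 0.07, -0.96 and -0.14 at 12 h, 4.96-fold lower (adjusted p = 0.000492). Ccl3, which attracts monocytes, fell from 9.15, 7.99, 9.16 and 8.14 to 7.40, 5.70, 7.09 and 7.46. Neither gene's arrays overlapped, though replicate 2 of WT stood low for Ccl3 at 12 h (step -1.70 ± 0.34, adjusted p = 0.0133), and the Ccl3 call was lost without the replicate number in the model and in the fit over all 16 arrays. Cxcl10, a ligand of the T cell receptor Cxcr3, was not called: 9.90, 8.69, 10.37 and 8.89 at 6 h against 9.84, 8.42, 9.13 and 8.62 at 12 h. For Ccl5 the step was -0.30 ± 0.12 (adjusted p = 0.117) and for Ccl2 -0.55 ± 0.17 (adjusted p = 0.0594), and for neither does the missing call show that the level was kept.

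Of 27 NF-kB subunits and feedback genes, a list that mixes activating subunits with inhibitors, 17 fell (63.0%, against 14.9% over all genes) and 1 rose (3.70%, against 14.5%). The median was -0.74, with -0.77 and -0.71 within the replicate numbers. At 12 h 25 of the 27 were still called above 0 h, against 25.4% of all genes. Between 14 and 16 fell with any 1 array left out, and 8 without the replicate number in the model. Tnfaip3 encodes A20, a ubiquitin-editing enzyme that ends signalling from Tlr4 and the TNF receptor. It stood at 6.90, 7.53, 6.79 and 7.60 at 6 h and at 4.92, 5.96, 4.84 and 5.84 at 12 h, without overlap and with replicate 2 higher throughout. The step was -1.81 ± 0.12, 3.52-fold lower (adjusted p = 0.000485).

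Nfkbia encodes IkB alpha, which pulls NF-kB out of the nucleus. Its levels were 8.79, 8.33, 8.94 and 8.52 at 6 h and 8.0, 7.16, 8.19 and 7.78 at 12 h, a smaller step of -0.86 ± 0.13 (adjusted p = 0.00476), again without overlap. Nfkbiz, the nuclear IkB zeta that is needed for secondary genes such as Il6, went from 4.84, 5.74, 5.05 and 5.92 to 2.21, 4.01, 3.13 and 4.37 (step -1.96 ± 0.20, adjusted p = 0.00133). Both calls were lost without the replicate number in the model and in the fit over all 16 arrays. Tnip3, a partner of A20, fell 2.66-fold (adjusted p = 0.00118) and Tnfaip2, a TNF-induced gene, 4.86-fold (adjusted p = 0.00194). Irak3, the kinase-dead inhibitor of Tlr signalling, was the member that rose: 3.88, 2.80, 4.11 and 3.40 at 6 h against 4.14, 4.0, 4.85 and 4.36 at 12 h (step 0.79 ± 0.17, adjusted p = 0.0162). Its times overlapped, and the call was lost without KO_06 replicate 2 (step 0.75), without KO_12 replicate 2 (0.75), without the replicate number in the model and in the fit over all 16 arrays.

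Among the falling genes of these lists, the promoters of Csf1, Il6, Cxcl1, Cxcl2, Cxcl3, Nfkb2, Nfkbia and Tnfaip3 hold the letters of an NF-kB site. The 5 shown were picked by hand from these. Each is the 250 bases before the annotated start from RefSeq (GRCm38.p6), written 5′ to 3′ on the gene's strand, with matches of GGG, any 2 bases and TTTCC on either strand in capitals. The windows are chr5:90890995-90891244 for Cxcl1, chr5:90903649-90903898 for Cxcl2 and chr5:30012864-30013113 for Il6 on the plus strand, and chr12:55492648-55492897 for Nfkbia and chr10:19015411-19015660 for Tnfaip3 on the minus strand.
Cxcl1: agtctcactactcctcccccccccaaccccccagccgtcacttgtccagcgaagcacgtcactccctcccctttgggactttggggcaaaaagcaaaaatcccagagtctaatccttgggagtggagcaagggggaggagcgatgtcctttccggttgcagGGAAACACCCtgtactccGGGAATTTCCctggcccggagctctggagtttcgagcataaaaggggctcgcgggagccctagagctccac
Cxcl2: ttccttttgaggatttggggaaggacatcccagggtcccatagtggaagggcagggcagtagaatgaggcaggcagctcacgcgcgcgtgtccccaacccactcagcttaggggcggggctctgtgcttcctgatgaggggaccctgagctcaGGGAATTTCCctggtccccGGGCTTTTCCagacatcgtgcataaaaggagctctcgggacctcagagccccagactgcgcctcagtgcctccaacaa
Il6: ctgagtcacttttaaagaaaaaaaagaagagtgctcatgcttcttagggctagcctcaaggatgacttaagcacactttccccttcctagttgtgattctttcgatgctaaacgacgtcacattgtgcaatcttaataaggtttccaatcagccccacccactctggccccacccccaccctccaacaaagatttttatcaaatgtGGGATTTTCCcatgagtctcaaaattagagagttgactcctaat
Nfkbia: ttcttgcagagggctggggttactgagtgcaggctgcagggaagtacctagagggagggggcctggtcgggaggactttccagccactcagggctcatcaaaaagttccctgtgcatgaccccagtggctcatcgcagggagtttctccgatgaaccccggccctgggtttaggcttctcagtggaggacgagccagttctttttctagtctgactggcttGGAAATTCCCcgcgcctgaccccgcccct
Tnfaip3: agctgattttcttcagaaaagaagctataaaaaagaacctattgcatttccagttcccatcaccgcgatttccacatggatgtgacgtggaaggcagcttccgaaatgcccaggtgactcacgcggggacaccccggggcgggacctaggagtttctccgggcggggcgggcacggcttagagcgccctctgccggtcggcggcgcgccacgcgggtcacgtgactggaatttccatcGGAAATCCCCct
The first base of the match lies 89 and 71 bases before the start in Cxcl1, 97 and 78 in Cxcl2, 44 in Il6, 29 in Nfkbia and 12 in Tnfaip3. This motif occurs in 378 of 27025 genes of the promoter table (1.40%), in 5 of 17 chemokines, 5 of 23 NF-kB subunits and feedback genes and 2 of 17 early cytokines that have a promoter in it. A match describes the letters only, and their lack in a window says nothing of the factor.

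Feedback on cytokine receptors and MAP kinases was mixed. Of 22 SOCS and MAP kinase phosphatase genes 9 fell (40.9%, against 14.9% over all genes) and 3 rose (13.6%, against 14.5%). The median was -0.47, with -0.47 and -0.29 within the replicate numbers, and 2 fell and 1 rose without the replicate number in the model. Cish, an inhibitor of STAT5 signalling, stood at 0.32, -0.05, 0.39 and 0.03 at 6 h and at -2.59, -2.19, -1.90 and -2.22 at 12 h. The step was -2.40 ± 0.17 (5.27-fold lower, adjusted p = 0.000583), and the difference at 12 h from 0 h was -0.07 ± 0.19 (adjusted p = 0.776). Dusp14 fell from between -3.38 and -2.20 to between -6.49 and -4.94, where 2 of 4 arrays were above background (step -2.85 ± 0.30, adjusted p = 0.00145).

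Dusp6, a phosphatase of ERK, moved the other way. Its arrays gave 1.23, -0.53, 1.18 and -0.12 at 6 h and 3.16, 1.99, 3.57 and 2.46 at 12 h, without overlap, a 5.11-fold rise (adjusted p = 0.000466) that was not called in the fit over all 16 arrays. Socs3, the feedback inhibitor of IL-6 signalling, fell by 0.79 ± 0.16 (adjusted p = 0.0142), a call lost without the replicate number in the model, in the fit over all 16 arrays and after quantile normalization. Socs1, which restrains interferon signalling, was not called (step -0.15 ± 0.14, adjusted p = 0.435; 0.02 after quantile normalization) at levels of 5.24 to 5.67 on the 12 h arrays.

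Immediate early and AP-1 genes gave 4 rises (14.3%, against 14.5% over all genes) and 9 falls (32.1%, against 14.9%) among 28. The median was -0.38, with -0.44 and -0.32 within the replicate numbers. With 1 array left out there were 2 to 4 rises, 2 without KO_06, WT_06 or WT_12 replicate 1 or either KO_12 array. There were 5 to 10 falls, 5 without KO_06 replicate 2, KO_12 replicate 2 or WT_12 replicate 1, and 1 rise and 3 falls without the replicate number in the model. Klf10, a TGF-beta-inducible repressor, recovered from -1.05, -1.48, -0.17 and -1.12 to 1.91, 1.04, 1.66 and 1.20. No array at 12 h overlapped those at 6 h, and the gene rose 5.31-fold (step 2.41 ± 0.19, adjusted p = 0.000689). Btg1, an antiproliferative gene, ran between 5.77 and 5.96 at 6 h and between 4.71 and 4.90 at 12 h, below its 0 h level (step -1.07 ± 0.11, adjusted p = 0.00148).

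**Figure D3:**
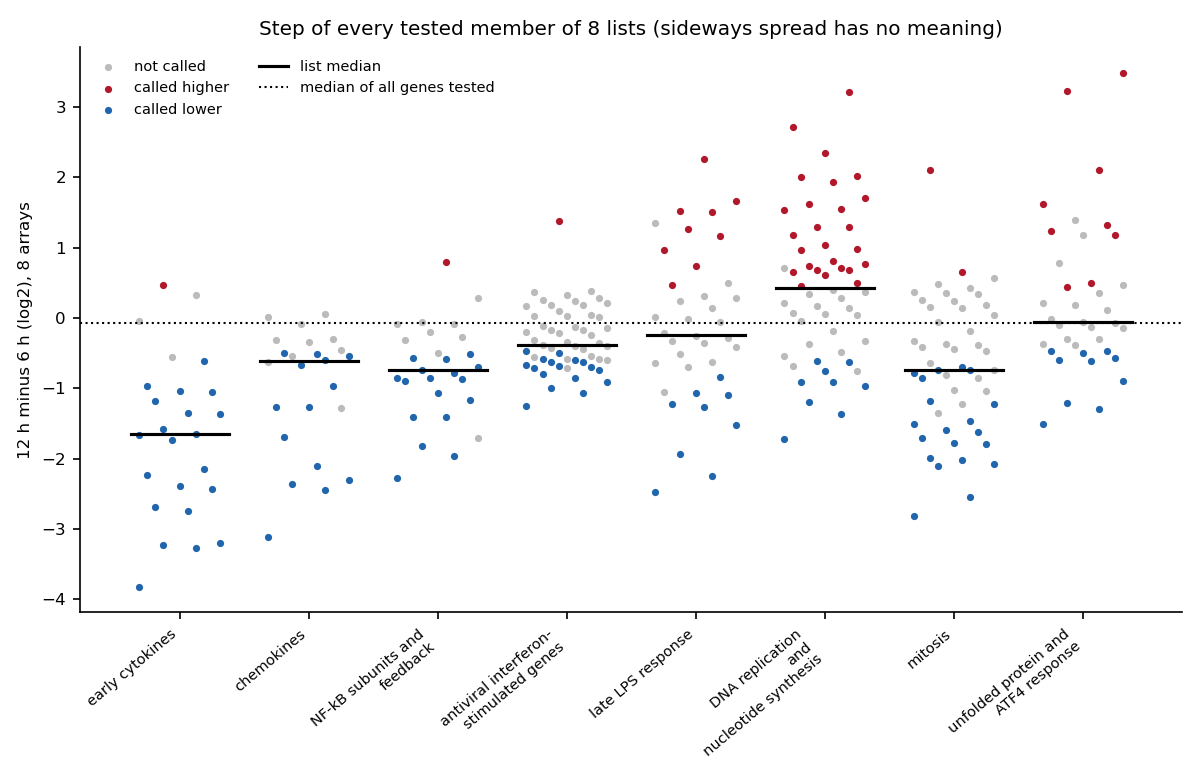
Step (12 h minus 6 h, log2, 8 arrays) of every tested member of 8 gene lists; red and blue mark members called higher and lower, black bars the list medians and the dotted line the median of all genes, -0.07. Early cytokines centre on -1.65 and DNA replication genes on 0.43.

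Antiviral interferon-stimulated genes were called above 0 h at both times. They numbered 55 of 55 at 6 h, against 30.1% of all genes, and 55 of 55 at 12 h, against 25.4%. In the step 17 fell (30.9%, against 14.9% over all genes), 1 rose (1.82%, against 14.5%) and 37 were not called, with a median of -0.39 against -0.07 over all genes, and medians of -0.54 and -0.19 within replicate number 1 and 2. The falls numbered 11 to 20 with any 1 array left out, 11 without KO_06 replicate 1, and 4 without the replicate number in the model. Their depth was small beside the median of 4.40 gained by 6 h. Ifih1, the cytosolic RNA sensor MDA5, had the deepest: 7.47, 7.31, 7.45 and 7.43 at 6 h against 6.06, 6.58, 5.56 and 6.44 at 12 h (step -1.26 ± 0.21, adjusted p = 0.00651). The times did not overlap, and the 12 h arrays were more spread than those at 6 h. Irf1, an interferon regulatory factor, fell by 0.91 ± 0.13 (1.88-fold, adjusted p = 0.00398).

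Isg15 and Rsad2, 2 members chosen after their values were seen, stand for those without a call. Isg15, a ubiquitin-like modifier, gave 8.72, 8.70, 8.63 and 9.05 at 6 h and 8.60, 8.89, 8.37 and 8.59 at 12 h. The arrays of the 2 times were interleaved (step -0.16 ± 0.14, adjusted p = 0.422). Rsad2, the antiviral enzyme viperin, stood at 9.79, 9.03, 9.43 and 9.17 and then at 9.05, 8.88, 8.41 and 8.70 (step -0.60 ± 0.19, adjusted p = 0.0564). Slfn4, of a family of similar genes, was the member that rose, from 1.99, 3.38, 1.91 and 3.26 to 3.86, 4.50, 3.02 and 4.66. One KO array at 12 h lay within the 6 h range. The step of 1.38 ± 0.18 (adjusted p = 0.00317) is uncertain because of its near relatives and was not called without the replicate number in the model.

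Interferon-inducible GTPases, which attack vacuoles that hold microbes, gave 6 falls (40%, against 14.9% over all genes) and 0 rises (0%, against 14.5%) among 15. The median was -0.48, with -0.69 and -0.42 within the replicate numbers. All 15 were still called above 0 h at 12 h, against 25.4% of all genes. With 1 array left out 3 to 8 fell, 3 without WT_06 replicate 1, and 0 fell without the replicate number in the model. Ifi47 ran from 7.56 to 7.84 at 6 h and from 6.25 to 7.13 at 12 h (step -1.06 ± 0.16, adjusted p = 0.00509), which puts the times apart. Members of this family are similar in sequence, so single calls are uncertain.

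Promoters of Isg15 and Rsad2 are shown as members of this list with the letters of an interferon-stimulated response element, GAAA, any 2 bases and GAAA on either strand, in capitals. Both are 250 bases before the start, 5′ to 3′ on the minus strand (RefSeq, GRCm38.p6), at chr4:156200819-156201068 and chr12:26456453-26456702.
Isg15: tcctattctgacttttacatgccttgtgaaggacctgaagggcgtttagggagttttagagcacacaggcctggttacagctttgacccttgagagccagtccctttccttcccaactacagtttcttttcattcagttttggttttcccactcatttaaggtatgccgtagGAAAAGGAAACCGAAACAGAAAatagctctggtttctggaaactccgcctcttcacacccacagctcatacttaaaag
Rsad2: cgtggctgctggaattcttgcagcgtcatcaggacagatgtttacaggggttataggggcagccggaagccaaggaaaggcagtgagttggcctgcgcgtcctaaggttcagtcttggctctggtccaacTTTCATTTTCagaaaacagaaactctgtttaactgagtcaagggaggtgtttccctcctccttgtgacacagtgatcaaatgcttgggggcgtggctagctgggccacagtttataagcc
In Isg15 the capitals cover 3 overlapping matches, 78, 72 and 66 bases before the start, and in Rsad2 1 match at 120. The motif was found in 821 of 27025 genes (3.04%) and in 15 of 42 antiviral interferon-stimulated genes with a promoter in the table.

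A smaller set of LPS-induced genes had not reached its highest level by 6 h. In the list of late LPS genes 9 of 38 rose, 9 fell and 20 were not called. Rises and falls were 23.7% each, against 14.5% and 14.9% over all genes, with a median of -0.24 (-0.30 and -0.26 within the replicate numbers). Of the 9 that rose, 8 had been called up at 6 h. Leaving out KO_12 replicate 1 left 5 rises, and 5 remained without the replicate number in the model. Lcn2, the siderophore-binding lipocalin that withholds iron from bacteria, rose from 2.55, 1.46, 2.38 and 1.71 to 3.79, 3.27, 3.69 and 3.44. All 12 h arrays were above all 6 h arrays, and replicate 1 was the higher at both times (step 1.52 ± 0.15, 2.87-fold, adjusted p = 0.00136). In the fit over all 16 arrays the call was lost. Hp, the haemoglobin scavenger haptoglobin, stood at 2.10, -1.44, 1.93 and -0.88 at 6 h and at 4.45, 0.84, 4.79 and 0.67 at 12 h. The replicate numbers differed by more than the times, yet every 12 h array stood above its 6 h partner.

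The step of Hp, 2.26 ± 0.21 (adjusted p = 0.00105), was not called without the replicate number in the model. Cd38, an enzyme that degrades NAD, rose 3.16-fold (adjusted p = 0.0114) without overlap. Ptgs2, the inducible cyclooxygenase COX-2, was among those that fell: 6.00, 6.85, 6.27 and 7.05 at 6 h against 3.71, 4.40, 3.45 and 4.72 at 12 h. Its times were clearly apart (step -2.47 ± 0.14, 5.56-fold lower, adjusted p = 0.000381). Ptx3, a soluble pattern recognition protein, fell 4.75-fold (adjusted p = 0.000867).

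Nos2, the inducible nitric oxide synthase, was not called. Its arrays gave 3.29, 2.75, 3.61 and 2.69 at 6 h and 1.81, 2.88, 1.29 and 2.13 at 12 h. Replicate 1 stood lower at 12 h in both genotypes, replicate 2 only in KO and by less, and the times overlapped (step -1.06 ± 0.39, adjusted p = 0.0870). Acod1, which makes itaconate, and Saa3, an acute-phase apolipoprotein, were likewise not called, with steps of -0.32 ± 0.11 (adjusted p = 0.0781) and 0.50 ± 0.23 (adjusted p = 0.152).

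Other genes still rising are named here because their steps were among the largest of that class. Siglece, an inhibitory sialic acid receptor of myeloid cells (probe at chr7:50914379-50914627, mm9), stood at -4.26, -5.24, -4.13 and -4.51 at 6 h and at -2.07, -2.68, -1.29 and -2.31 at 12 h. At 0 h none of its arrays was above background. The step was 2.45 ± 0.15, 5.46-fold higher, without overlap (adjusted p = 0.000413). Cd300e, an activating myeloid receptor, gave 0.31, 1.36, 0.14 and 1.88 at 6 h and 2.58, 3.13, 3.39 and 3.85 at 12 h. Each 12 h array exceeded each 6 h array, and the rise was 4.97-fold (adjusted p = 0.00170). Srms, a kinase of the Src family, rose from between -5.66 and -3.92 to between -2.89 and -1.64 (step 2.64 ± 0.16, adjusted p = 0.000423). At 6 h 2 of its 4 arrays were above background.

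Genes of DNA replication recovered in part. Of 54 tested, 46 had been called below 0 h at 6 h, against 30.3% of all genes, with a list median of -2.07. In the step 26 rose and 9 fell (48.1% and 16.7%, against 14.5% and 14.9% over all genes), with a median of 0.43, and medians of 0.32 and 0.48 within the replicate numbers. Of the 26 that rose, 25 were recovering. At 12 h 43 of the 54 were still called below 0 h, against 26.9% of all genes. With any 1 array left out 19 to 22 rose, and 10 without the replicate number in the model.

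Ung, the uracil-DNA glycosylase, was above background on none of the 6 h arrays (-6.20, -6.59, -7.25 and -6.26) and on all 12 h arrays (-3.37, -2.89, -4.08 and -3.11). It was at least 5.15-fold higher at 12 h (adjusted p = 0.000653). Pole2, a subunit of DNA polymerase epsilon, rose from -5.85, -5.0, -6.80 and -5.48 to -3.44, -2.57, -3.75 and -2.50. On 1 of 4 arrays at 6 h it was above background, and the times did not overlap (step 2.72 ± 0.18, adjusted p = 0.000468). For Mcm2, part of the replicative helicase, the arrays gave -3.68, -2.98, -3.19 and -2.06 and then -1.18, -0.42, -1.90 and -0.35, a 4.04-fold rise (adjusted p = 0.00296). One 12 h array came close to the highest at 6 h without reaching it. Msh6, a mismatch repair protein that is also a reported target of miR-155, rose from between -1.38 and -0.73 to between 0.78 and 1.28 (4.01-fold, adjusted p = 0.000404).

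Members that fell included Pcna, Pole, Dut, Lig1, Rrm2, Tyms, Rfc3 and Pola1. Tyms, the thymidylate synthase, went from 1.22, 1.74, 1.26 and 1.74 to 0.07, 0.74, 0.60 and 0.67, without overlap (step -0.97 ± 0.14, adjusted p = 0.00406). Pola1, the catalytic subunit of polymerase alpha, stood at -2.71, -0.41, -2.19 and -0.61 at 6 h and at -3.23, -2.34, -4.08 and -3.13 at 12 h. The times overlapped, and its call (step -1.71 ± 0.31, adjusted p = 0.00934) was lost without the replicate number in the model.

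Genes of mitosis were called mostly downwards in the step. Of 50 tested, 46 were below 0 h at 6 h by call, against 30.3% of all genes. In the step 20 fell further or fell for the first time (40%, against 14.9% over all genes) and 2 rose (4%, against 14.5%). The median was -0.73, with -0.70 and -0.36 within the replicate numbers. Of the 20 that fell, 19 were in the class still falling. At 12 h 47 of 50 were called below 0 h, against 26.9% of all genes, with a list median of -4.24. Between 15 and 20 fell with any 1 array left out, and 11 without the replicate number in the model. Kif4, a kinesin of the mitotic spindle (probe at chrX:97922126-97922185, mm9), stood at -1.21, 0.07, -1.58 and -0.16 at 6 h and at -4.12, -2.19, -4.79 and -3.05 at 12 h. The times did not overlap and replicate 1 was the lower one in both genotypes at both (step -2.82 ± 0.17, 7.05-fold lower, adjusted p = 0.000413). Ccnb2, a cyclin of entry into mitosis, went from 1.86, 0.21, 1.73 and -0.16 to -1.0, -1.14, -0.99 and -1.67, again without overlap (4.31-fold lower, adjusted p = 0.00392). Ccnf, a cyclin that is part of a ubiquitin ligase, was one of the pair that rose: -4.72, -5.05, -5.23 and -6.39 at 6 h against -3.09, -2.73, -3.82 and -3.33 (step 2.10 ± 0.28, adjusted p = 0.00325), a call lost with the capped normexp background correction.

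Smad3, Tmem86a and Inpp5d fell steeply by 6 h and rose again in the step. Smad3, the transcription factor downstream of TGF-beta receptors (probe at chr9:63495131-63495190, mm9), stood at -4.96, -5.45, -4.59 and -5.27 at 6 h. At 12 h its arrays gave -1.02, -1.59, -1.13 and -1.0, within the range of -2.19 to -0.82 seen at 0 h. The step was 3.88 ± 0.16, 14.8-fold higher (adjusted p = 0.000297), and the difference between 12 and 0 h was 0.26 (adjusted p = 0.515). Tmem86a, a lysoplasmalogenase, moved from -0.51, -1.05, -0.66 and -0.80 to 3.49, 3.08, 3.33 and 2.88, with arrays of each time less than 1 unit apart (15.4-fold, adjusted p = 0.000297). It remained 0.81 below 0 h (adjusted p = 0.0118).

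Inpp5d encodes the lipid phosphatase SHIP1, a brake on PI3-kinase signalling and the best known target of miR-155 in these cells. At 0 h it stood at 4.81, 4.41, 5.10 and 4.02, at 6 h at 1.40, 1.39, 1.85 and 1.56, and at 12 h at 4.22, 3.82, 4.68 and 4.16. The fall and the return were seen on every array of both genotypes, without overlap between 6 and 12 h (step 2.67 ± 0.12, 6.36-fold higher, adjusted p = 0.000326). Against 0 h the 12 h level differed by -0.36 (adjusted p = 0.135). The step was 2.62 in WT and 2.71 in KO, and their difference of 0.09 was not called (unadjusted p = 0.761).

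Of 43 reported targets of miR-155, 11 rose (25.6%, against 14.5% over all genes), 10 of them recovering, and 7 fell (16.3%, against 14.9%). Their median of -0.09 was near that of all genes and turned to 0.01 on scaling to the median and to 0.02 after quantile normalization. Without the replicate number in the model 7 rose and 4 fell. Sla, an adaptor that dampens receptor signalling, was the member still rising: 2.13, 1.99, 2.39 and 3.15 at 6 h against 3.60, 4.03, 4.38 and 4.40, without overlap (3.22-fold, adjusted p = 0.00137). Vcam1, an adhesion molecule, fell from between 5.17 and 5.73 to between 3.36 and 4.19 (step -1.80 ± 0.16, adjusted p = 0.000993).

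Of 43 macrophage identity genes 6 rose (14.0%, against 14.5% over all genes) and 13 fell (30.2%, against 14.9%). The median was -0.28, with -0.24 and -0.25 within the replicate numbers. With 1 array left out 2 to 6 rose, fewer than 4 without KO_06 replicate 1, KO_12 replicate 1, WT_06 replicate 1 or WT_12 replicate 1, and 0 rose and 9 fell without the replicate number in the model. Cebpa, a transcription factor of myeloid commitment, had been at -2.32, -4.01, -1.77 and -3.90 at 6 h and was at 0.88, -1.70, 0.77 and -1.77 at 12 h. Replicate 2 was lower at both times and overlapped the 6 h arrays of replicate 1 (step 2.54 ± 0.19, adjusted p = 0.000653). It was still 3.40 below 0 h, and the call was lost without the replicate number in the model. Tfec, a transcription factor of the MiT family in macrophages, had risen by 6 h and then fell from between 2.20 and 2.75 to between -0.79 and 0.36, 7.03-fold lower (adjusted p = 0.000496). Csf1r, the M-CSF receptor, was not called (step -0.48 ± 0.17, adjusted p = 0.0814).

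The prostaglandin-degrading enzyme gene Hpgd, of the same list, stood at -0.71, -3.23, -0.91 and -2.76 at 6 h and at -4.14, -5.72, -4.50 and -6.00 at 12 h. On 2 of 4 arrays it was then above background. Replicate 2 was lower throughout and the times did not overlap (step -3.19 ± 0.21, 9.11-fold lower, adjusted p = 0.000480). Slco2b1, an organic anion transporter, went from between -2.60 and -1.77 to between -6.28 and -4.27 (adjusted p = 0.00198), likewise with 2 of 4 arrays above background at 12 h. Gpr34, a lysophosphatidylserine receptor, was above background on all 6 h arrays and on none at 12 h, a fall of at least 2.83-fold (adjusted p = 0.00451).

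In the list of alternative activation and resolution 11 of 25 genes fell (44%, against 14.9% over all genes) and 2 rose (8%, against 14.5%). The median was -0.76, with -0.45 and -0.75 within the replicate numbers. Between 8 and 11 fell with any 1 array left out, and 5 without the replicate number in the model. Mrc1, the mannose receptor, declined evenly from 4.39, 5.82, 4.45 and 5.89 at 0 h through 3.02, 3.55, 2.98 and 3.08 to 1.48, 1.24, 1.26 and 1.18 at 12 h. The replicate numbers stood apart at 0 h and close together at 12 h (step -1.87 ± 0.15, 3.65-fold lower, adjusted p = 0.000764). Clec10a, a galactose-binding lectin, fell from between -1.68 and 0.24 to between -4.31 and -2.0 (5.60-fold, adjusted p = 0.000564). Mertk, the receptor for apoptotic cells, had instead been higher at 6 h and then fell: 3.81, 3.85, 3.83 and 3.30 against 2.77, 2.87, 2.16 and 2.02, a difference of -0.11 from 0 h at 12 h (step -1.25 ± 0.17, adjusted p = 0.00317). Arg1, the arginase of alternative activation, was not called (step 0.16 ± 0.77, adjusted p = 0.894).

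Within the list of unfolded protein and ATF4 response, genes moved in both directions. Of 37, 9 rose (24.3%, against 14.5% over all genes) and 10 fell (27.0%, against 14.9%). Their median of -0.05 turned to 0.04 on scaling to the median and to 0.07 after quantile normalization. With 1 array left out 7 to 8 rose and 6 to 9 fell, 6 without KO_06 replicate 2, WT_06 replicate 1 or WT_12 replicate 1, and 6 and 3 did so without the replicate number in the model. The 9 that rose include Atf4, named after its values were seen (step 1.23, adjusted p = 0.0016) and 4 genes known to be induced by it: Trib3, Chac1, Sesn2 and Ddit3. The 10 that fell include Hspa5, Edem1 and Ppp1r15a, while Herpud1 was among the 9 that rose. Asns and Nupr1 were not called, and the 2 directions are not read as branches of the response.

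Trib3, a pseudokinase, stood at -2.38, -1.78, -2.28 and -1.88 at 6 h and at 1.29, 1.76, 1.24 and 1.35 at 12 h. The arrays of each time were within 1 unit and the times far apart (step 3.49 ± 0.13, 11.2-fold higher, adjusted p = 0.000297). It thereby exceeded its 0 h level by 1.55 (adjusted p = 0.00223). Chac1, which degrades glutathione, was one of the genes without a call at 6 h: -3.01, -2.15, -2.36 and -2.38 at 0 h and -2.87, -2.30, -2.90 and -2.19 at 6 h. At 12 h it stood at 0.89, 0.59, 0.98 and 0.19, a 9.35-fold rise with no overlap (step 3.22 ± 0.27, adjusted p = 0.000812). Sesn2, a sensor of leucine that restrains mTORC1, rose 4.30-fold (adjusted p = 0.00143) to a level -0.18 from that at 0 h. Ddit3, the transcription factor CHOP, went from 0.53, 2.38, 0.43 and 2.43 to 3.11, 3.63, 2.41 and 3.13. One KO array at 12 h lay within the 6 h range, and the call (step 1.63 ± 0.30, adjusted p = 0.00952) was lost without the replicate number in the model.

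Hspa5, the chaperone BiP, was higher at 6 h and fell: 7.30, 7.36, 7.09 and 7.62 against 6.46, 6.28, 6.35 and 6.71, without overlap (step -0.89 ± 0.15, adjusted p = 0.00681). Edem1, which passes misfolded glycoproteins to degradation, fell by 1.21 ± 0.13 (adjusted p = 0.00144), and Ppp1r15a, the GADD34 subunit that restores translation, by 1.30 ± 0.18 (adjusted p = 0.00369). The Ppp1r15a call was lost in the fit over all 16 arrays.

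The promoters of Trib3, Chac1, Ddit3 and Atf4 were picked by hand to be searched for an ATF4 and C/EBP composite element. Only that of Chac1 is shown, because those of Trib3, Ddit3 and Atf4 held no match. Of the genes with an ordinary symbol not called at 6 h, Chac1 had the largest rise. Its promoter window covers chr2:119350992-119351241 on the plus strand (RefSeq, GRCm38.p6), 250 bases before the start. Capitals mark TGATGNAA on either strand, the letters of that element.
Chac1: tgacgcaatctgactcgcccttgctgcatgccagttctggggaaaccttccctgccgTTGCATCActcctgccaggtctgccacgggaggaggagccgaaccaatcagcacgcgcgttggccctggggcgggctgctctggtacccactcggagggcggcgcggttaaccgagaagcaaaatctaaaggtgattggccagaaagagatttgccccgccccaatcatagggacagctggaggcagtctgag
The match begins 193 bases before the start. The motif was found in 954 of 27025 genes (3.53%) and in 4 of 34 genes of this list with a promoter in the table, of which Chac1 and Herpud1 rose in the step while Asns and Nupr1 were not called.

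Of 25 genes of cholesterol synthesis 10 fell (40%, against 14.9% over all genes) and 1 rose (4%, against 14.5%). The median was -0.34, with -0.57 and -0.27 within the replicate numbers. With any 1 array left out 7 to 11 fell, and 4 without the replicate number in the model. Scap, which escorts SREBP to the Golgi, went from 4.22, 4.27, 3.97 and 4.64 to 2.85, 3.18, 2.96 and 3.06. The times did not overlap (step -1.26 ± 0.14, 2.40-fold lower, adjusted p = 0.00168). Hmgcs1, a synthase of the pathway, fell by 1.20 ± 0.16 (adjusted p = 0.00341).

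Ribosome biogenesis gave 13 rises (21.7%, against 14.5% over all genes) and 4 falls (6.67%, against 14.9%) among 60 genes. The median was 0.26, with 0.41 and 0.11 within the replicate numbers. The mitochondrial ribosome gave 9 rises and 0 falls among 65, with a median of 0.15 (0.21 and 0.11). The 9 rises are 13.8% of that list, near the 14.5% of all genes, and the 0 falls stand against 14.9%. The 13 became 5 to 12, with 8 or fewer without KO_06 replicate 1 or 2, KO_12 replicate 1 or 2, WT_06 replicate 1 or WT_12 replicate 1. The 9 became 4 to 9, below 6 without KO_06, WT_06 or WT_12 replicate 1, and each count was 2 without the replicate number in the model. Mrpl41, a protein of the large mitochondrial subunit, had the largest rise: 2.62, 2.31, 2.37 and 2.53 at 6 h against 3.87, 3.71, 4.14 and 3.59 at 12 h, without overlap (2.58-fold, adjusted p = 0.00143).

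Of 55 genes of oxidative phosphorylation 1 rose and 1 fell, 1.82% each against 14.5% and 14.9% over all genes. The median of -0.05 became 0.04 on scaling to the median and 0.08 after quantile normalization. Glycolysis and hypoxia genes gave 8 falls (22.9%, against 14.9% over all genes) and 2 rises (5.71%, against 14.5%) among 35. The median was -0.20, with -0.23 and -0.10 within the replicate numbers. With an array left out 5 to 8 fell, fewest without WT_06 replicate 1, KO_06 replicate 1 or 2, KO_12 replicate 2 or WT_12 replicate 1, and 4 without the replicate number in the model. Pfkp, the platelet form of phosphofructokinase, fell from between 3.75 and 3.96 to between 2.01 and 2.72 (3.04-fold, adjusted p = 0.00110), though its second probe gave a step of -0.57. Adm, which encodes the hypoxia-induced peptide adrenomedullin, fell from between -1.22 and 0.05 to between -3.50 and -2.56 (4.94-fold, adjusted p = 0.00175).

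**Figure D4:**
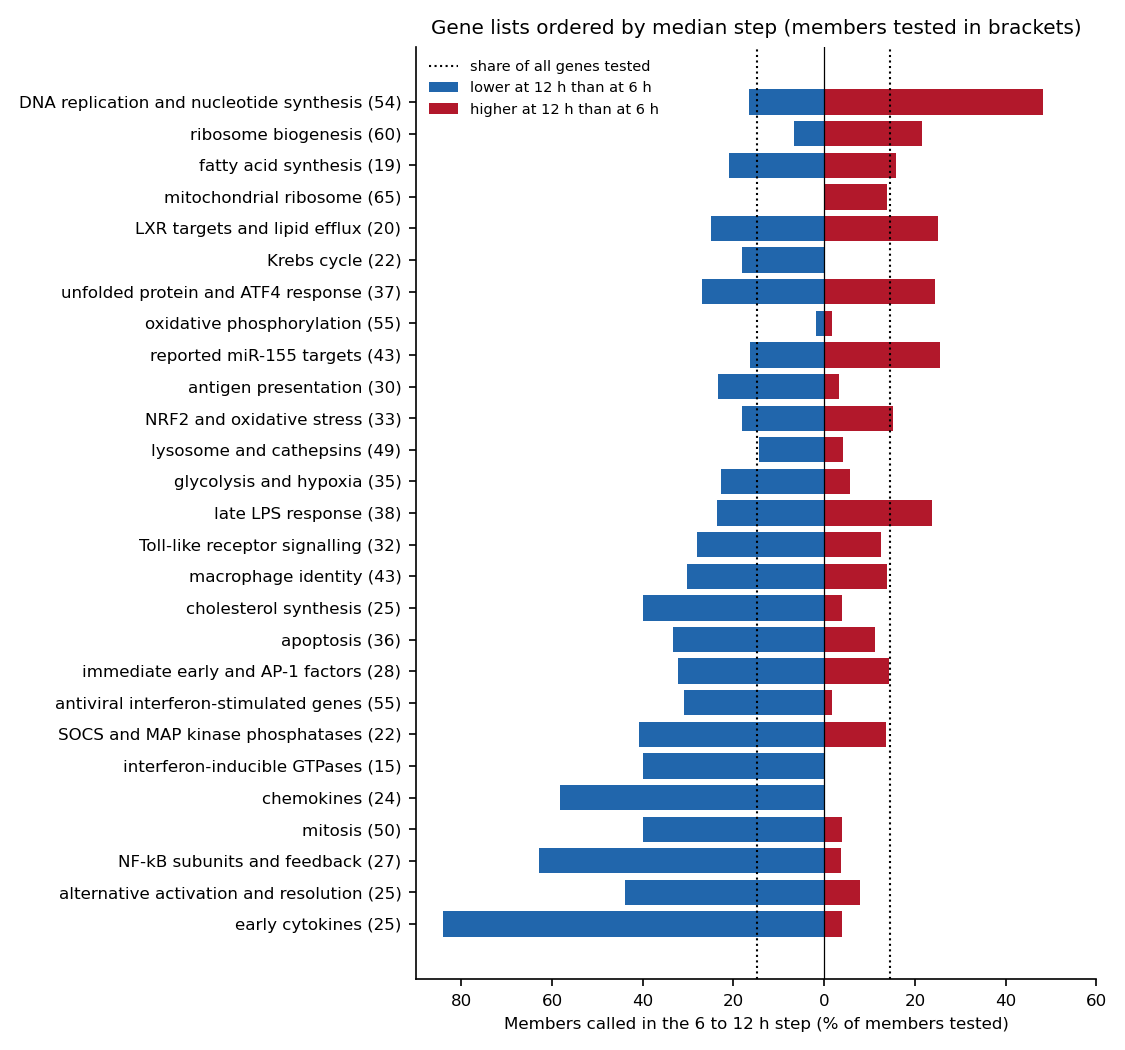
Share of the tested members of 27 gene lists called lower (blue, to the left) and higher (red, to the right) in the step, in percent, ordered by median step; dotted lines mark the shares over all genes, 14.9% and 14.5%. Early cytokines stand at 84.0% lower and DNA replication genes at 48.1% higher.

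Several other shares lay near those of all genes. Rises made up 14.3% of immediate early and AP-1 genes, 14.0% of macrophage identity genes, 13.6% of SOCS and MAP kinase phosphatase genes, 12.5% of Toll-like receptor signalling genes and 11.1% of apoptosis genes, against 14.5% over all genes. Falls made up 16.3% of the reported miR-155 targets, against 14.9%.

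Of 33 NRF2 and oxidative stress genes 5 rose (15.2%) and 6 fell (18.2%), near the 14.5% and 14.9% of all genes, with 3 falls on leaving out any array other than KO_06 or KO_12 replicate 1, and the median of -0.13 turned to 0.03 after quantile normalization and to 0.05 with the mean over the probes of a gene. Osgin1, a growth inhibitor induced by oxidative stress, stood at 0.80, -0.69, 1.26 and -0.41 at 6 h and at 3.09, 1.97, 3.26 and 1.87 at 12 h. It rose 4.95-fold without overlap (adjusted p = 0.000417). Hmox1, the haem oxygenase, gave 4.58, 3.37, 7.17 and 3.85 and then 8.35, 6.17, 8.56 and 5.72. The first KO array at 6 h was far above the others, and the call (step 2.46 ± 0.47, adjusted p = 0.0105) was lost without the replicate number in the model. Mt2, a metallothionein that binds zinc, fell from 8.66, 6.73, 8.61 and 6.56 to 5.48, 4.58, 5.89 and 3.86 (6.45-fold, adjusted p = 0.000723), also a call that needs the replicate number.

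Genes of Toll-like receptor signalling gave 4 rises (12.5%, against 14.5% over all genes) and 9 falls (28.1%, against 14.9%) among 32. The median was -0.25, with -0.30 and -0.27 within the replicate numbers. The falls were 4 to 7 with an array left out, 4 or 5 without any array other than KO_06 replicate 2 or KO_12 replicate 2, and 2 without the replicate number in the model. Tlr6, the partner of Tlr2 for lipopeptides, fell from 4.59, 4.64, 4.73 and 4.63 to 3.51, 3.60, 3.36 and 3.45, with the arrays of each time close together and the times apart (step -1.17 ± 0.11, adjusted p = 0.00114). Traf3, an adaptor of the interferon branch, rose from between 0.68 and 1.11 to between 1.95 and 2.35, above its 0 h level by 0.77 (step 1.23 ± 0.14, adjusted p = 0.00189). Tab1, a partner of the kinase TAK1, rose 2.20-fold (adjusted p = 0.00176) and Tab2, another partner of TAK1, fell 2.12-fold (adjusted p = 0.00335).

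Apoptosis genes gave 12 falls (33.3%, against 14.9% over all genes) and 4 rises (11.1%, against 14.5%) among 36. The median was -0.37, with -0.47 and -0.16 within the replicate numbers. Antigen presentation genes gave 7 falls (23.3%) and 1 rise (3.33%) among 30. Their median of -0.09 turned to 0.01 on scaling to the median and to 0.03 after quantile normalization. Without WT_12 replicate 1 the latter list gave 4 falls. Without the replicate number in the model the falls were 5 and 1. Casp9, the initiator caspase of the mitochondrial pathway, recovered from between 1.28 and 2.04 to between 2.73 and 3.64 (2.69-fold, adjusted p = 0.000853). Nlrp3, the inflammasome sensor, fell from 1.16, 0.28, 1.30 and 0.92 to -0.83, -1.17, -0.33 and -0.86, without overlap (3.28-fold, adjusted p = 0.000653). Cd40, a co-stimulatory receptor, fell by 1.21 ± 0.19 (adjusted p = 0.00548) while its 12 h level stayed 7.25 above 0 h, and that call was lost without the replicate number in the model. Cd80, a ligand of CD28, fell by 1.22 ± 0.19 (adjusted p = 0.00577).

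The largest single steps lay mostly outside these lists. Of the 12 largest rises, among genes whose arrays did not overlap, all 12 were recovering, and of the 12 largest falls 11 were declining and 1 was still falling. The choice by size favours these classes, since the 6 h arrays enter both differences. Over all called genes, 1762 of 2559 rises were recovering and 1469 of 2630 falls declining. Rras2, a small GTPase related to Ras (probe at chr7:121190282-121190320, mm9), stood at 1.91, 2.77, 1.82 and 3.02 at 6 h and at -2.19, -1.81, -2.31 and -1.67 at 12 h. The 12 h arrays were also below those at 0 h, by 1.43 on average. The step was -4.38 ± 0.16, 20.8-fold lower (adjusted p = 0.000297). Adamts4, a protease of extracellular proteoglycans, fell from 1.54, 1.29, 1.95 and 1.47 to -3.14, -2.83, -2.04 and -2.77 (19.1-fold, adjusted p = 0.000326), again far without overlap.

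Asap3, a GTPase-activating protein of Arf proteins, fell from between -1.31 and -0.09 to between -6.04 and -4.80, where 2 of 4 arrays were above background (24.8-fold, adjusted p = 0.000337). Efna2, an ephrin ligand, was above background on all arrays at 6 h and on none at 12 h, a fall of at least 5.43-fold (adjusted p = 0.000405). St6gal1, a sialyltransferase, was the member still falling, from between -2.08 and -1.35 to between -6.04 and -4.53 (11.5-fold, adjusted p = 0.000892). Its 2 probes disagreed, since the other gave a step of 0.52.

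Pgbd5, a domesticated transposase, had the largest rise, from -3.60, -5.14, -3.84 and -5.37 to 0.82, -1.65, 1.63 and -0.58 (23.3-fold, adjusted p = 0.000505). Its second probe gave a step of 0.90, so the size depends on the probe. Arhgap27, a GTPase-activating protein, rose from between -3.45 and -1.43 to between 1.0 and 2.25 (16.5-fold, adjusted p = 0.000417), above its 0 h level, with a second probe at 2.29. Abi3, an adaptor of the actin-regulating WAVE complex, rose from between -3.59 and -1.63 to between -0.30 and 2.23 (12.8-fold, adjusted p = 0.000373). Cnr2, the cannabinoid receptor of immune cells, rose 12.8-fold (adjusted p = 0.00383), with 2 of 4 arrays above background at 6 h and a second probe at 1.46.

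Pooling takes the step to be one for both genotypes. The test of the difference of the step, KO minus WT, called 0 of 17658 genes (0%) in limma, with 3 residual degrees of freedom and 1015 genes at an unadjusted p under 0.05 (5.75%). In the fit over all 16 arrays 3 genes were called, all higher in KO: Noxa1 (difference 3.82), Sod3 (4.31) and Zfp507 (4.05). Leaving out WT_12 replicate 2 called Hrh2 (difference -12.6) and a probe without an ordinary gene symbol, with a single WT array left at 12 h that is assumed to vary like the other groups. Within WT alone 2042 genes were called in the step (11.6%), 922 higher (5.22%) and 1120 lower (6.34%), and within KO alone 2045 (11.6%). Of the 5189 genes called over both genotypes, 5189 had the same sign in WT and in KO, which the pooled call favours, and the median absolute difference between the 2 steps was 0.18.

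**Figure D5:**
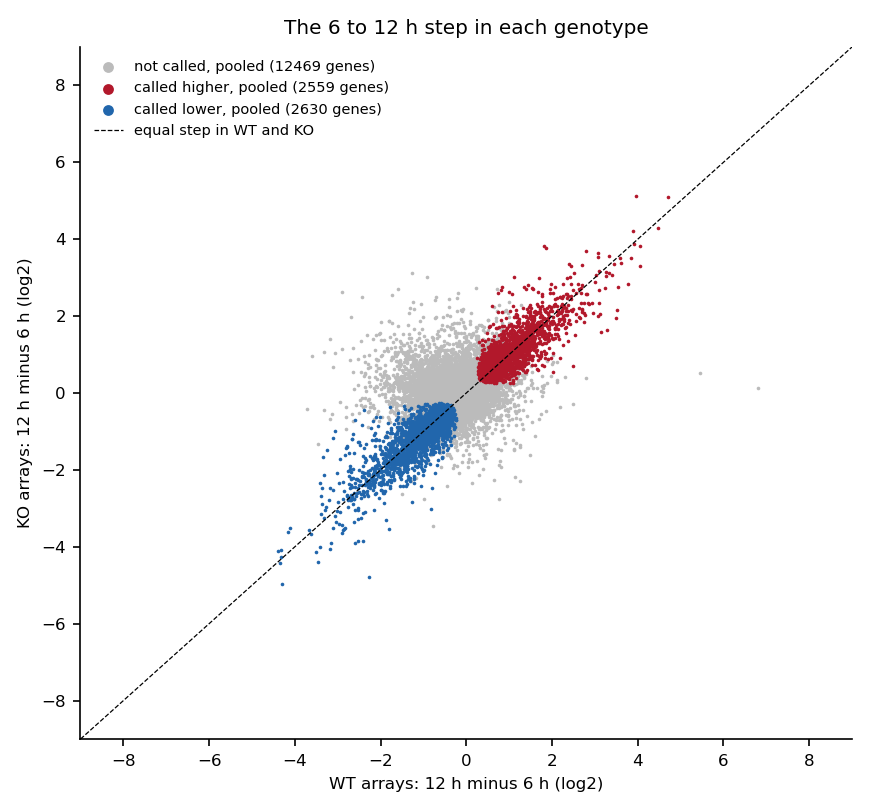
Step (12 h minus 6 h, log2) on the WT arrays (x axis) against the step on the KO arrays (y axis), 1 point per gene, coloured by the call over both genotypes; the dashed line marks equal steps. The 5189 called genes lie on the same side of 0 in both genotypes, and 0 genes were called for a difference between them.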

How the data were processed

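Cy3-labelled cRNA of 16 samples was hybridised to 1-colour Agilent mouse arrays, 1 sample per array, and the submitters deposited the scanner output of Agilent Feature Extraction 10.5.1.1 (per the file headers). Its processed signal is a spot's intensity on a linear scale, background-subtracted and spatially detrended with surrogate values for dim spots, and not scaled between arrays, per the file headers. A deposited series table of log2 values served as an alternative. Its scaling is not stated, but every column has an upper quartile of 8.79, its medians run from 4.23 to 5.24, and each column correlated with the scanner values of its array at an r of 1.00. Each array held 43379 spots, 1639 of them controls, with 61 to 108 outlier spots, which were left out with the controls, and 0 saturated spots. Over all 16 arrays the 75th percentile of intensity ran from 291 to 775.7 and 56.2% to 67.6% of spots were well above background. The number of arrays limits the precision.

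Here the log2 of the processed signal minus each array's 75th percentile was used, and spots of one probe were averaged. Of 41174 probes, 97 without a value on every array were left out. Probes well above background on all arrays of at least 1 group were kept, 26855 of them, and 17658 genes were formed from them, each read from its brightest probe on average (6201 had several). Names were updated through the RefSeq gene table (GRCm38.p6), which held the symbols of 14247 of these genes. Probe positions are those of the array files (mm9).

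The step was fitted with limma 3.58.1 in R 4.3.3 (lmFit and eBayes, moderated over all genes) on the 8 arrays, with time, genotype and replicate number as terms. It left 4 residual degrees of freedom. P-values were adjusted by Benjamini-Hochberg over all genes. The replicate number coincides with the scan session of the file headers. Same-numbered arrays deviated together, with correlations of their deviations from the group means of 0.40 to 0.84 over 28 pairs of groups and of 0.58 to 0.74 over the 6 pairs at 6 and 12 h. Differences from 0 h and the difference between genotypes were fitted in the same way.

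Where a gene was well above background on no array of one time, the fold is a lower bound: the mean of the bright time against, per array of the dim time, the higher of the probe's own value and the lowest signal of probes well above background.

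Genes were named by a rule: among genes with an ordinary reference symbol, the 12 largest called steps each way without overlap of arrays and with one sign in all 4 pairs, the largest steps of each class, up to 4 members called each way in each list, and fixed genes of the LPS response. Other genes are marked as chosen after their values were seen or are named as the members of a printed count or motif list. The members and the 39 gene lists (1073 genes, 1010 tested) were chosen with earlier results of these data known. Lists are described by counts and medians. Alternatives were other scalings and background correction, other filters and probe rules, no replicate number, the slide as a block, all 16 arrays and leaving out each array. The step of each genotype was also taken as a contrast within the fit of both.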

Additional observations from a re-analysis of the deposited data

Results flagged for a closer look

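In each of 244 named genes, the 4 arrays of 6 h and the 4 arrays of 12 h were searched for an array whose gap to its nearest neighbour exceeded the share of the whole range that Dixon's 95% test allows. Of 488 such sets 15 (3.07%) passed, while chance gives about 1 in 20. At 6 h, WT replicate 2 stood lowest for Nr1h3 (2.62 against 3.51 to 3.59, ratio 0.919), Pakap (4.0 against 4.71 to 4.85, ratio 0.838) and Sirpa (6.04 against 6.27 to 6.31, ratio 0.849), and WT replicate 1 highest for Fcer1a (-4.72 against -5.30 to -5.22, ratio 0.851). KO replicate 2 stood lowest at 6 h for Mertk (3.30 against 3.81 to 3.85, ratio 0.933) and highest for Heatr1 (0.87 against 0.65 to 0.68, ratio 0.852), Mrpl2 (1.30 against 0.88 to 0.93, ratio 0.872) and Zfp36 (6.46 against 5.76 to 5.87, ratio 0.850). KO replicate 1 was lowest for Irf1 (7.40 against 7.75 to 7.82, ratio 0.839).

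At 12 h, WT replicate 2 stood highest for Atp6v0a1 (2.26 against 1.55 to 1.65, ratio 0.851) and Cd80 (-1.40 against -1.99 to -1.92, ratio 0.875) and lowest for Il23a (-7.84 against -7.55 to -7.49, ratio 0.840). WT replicate 1 was highest for Atp6v0d2 (0.40 against -1.44 to -1.29, ratio 0.915) and Csf3r (2.78 against 2.31 to 2.36, ratio 0.888), and KO replicate 1 lowest for Ccl4 (7.44 against 8.41 to 8.56, ratio 0.871).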

How the results depend on the processing

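Without the replicate number as a block the step had 1610 called genes (847 higher, 763 lower) in place of 5189, the difference from 0 h at 12 h 6119, the list members 133 (41 higher, 92 lower) in place of 373, and the classes 36 still rising, 409 declining, 660 recovering and 177 still falling genes. Scaling to the median gave 409 still falling genes, no filter on dim probes 136 still rising, and all 16 arrays 153 still rising and 3 genes for the difference between genotypes. With 1 array left out the step had 3576 to 4166 called genes, still rising 137 to 181, declining 929 to 1240, and the difference between genotypes 0 to 2. Within the fit of both genotypes, the WT step gave 2042 genes and 155 list members, the KO step 2045 and 162. Other settings gave 3658 to 5922 called genes. Signs reversed for Egr1 (0.029 on scaling to the median; -0.35 to 0.20 with an array left out), Socs1 (0.018 after quantile normalization), Ms4a1 (-0.029 with capped normexp), Itgb3 (-0.15) and Mdh1 (0.10) with the mean of probes, and Arg1 (-0.54 to 0.98 with an array left out; -0.078 in KO alone). Normexp without a cap could not be used, since local backgrounds reached 722571 on 1 array. The capped form and the comparison of the first 6 h in one genotype with the step in the other were chosen after seeing the data. Of 232 named called genes, 185 kept the call with each array left out and 113 lost it without the block. Dim probes near background limit the levels of bounded genes.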
